A study of Ovis aries with 32 samples.

Results

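Messenger RNA of 7 genes of the cholesterol pathway was followed across 4 fat depots of sheep: HMGCS1, IDI1, FDFT1, SQLE, LSS, DHCR7 and SREBF2. Of these, 6 encode synthesis enzymes and SREBF2 the factor that drives them, while uptake was read from a list of lipoprotein uptake genes. They were chosen by symbol from the 28524 genes of the deposited count table, where 6 of the 7 stand under their symbols. IDI1 was matched by its RefSeq gene ID, 101108851 (assembly ARS-UI_Ramb_v3.0), since its row carries a LOC name. All 7 were kept by the filter on low counts over all libraries, which kept 14225 genes.

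The study asked whether exposure of female sheep (Ovis aries) to excess testosterone before birth changes the transcriptome of their fat. Control ewes carried their pregnancies untreated, and treated ewes received 100 mg of testosterone propionate (1.2 mg/kg) in 2 ml of corn oil by 2 intramuscular injections per week from day 30 to day 90 of gestation. In all, 4 adult female offspring per treatment were sampled, control sheep 98, 131, 132 and 201 and testosterone sheep 48, 185, 233 and 255, with no 2 sheep of a group born to the same pregnancy. Each gave visceral fat (from the mesentery around the rumen), subcutaneous fat (over the sternum), perirenal fat (around the kidney) and epicardial fat (on the heart muscle), making 32 libraries of 3′ mRNA-seq, an assay that reads the 3′ end of each transcript. Every sheep of both groups had been ovariectomised, was given a 1 cm estradiol implant, wore 2 progesterone implants for 14 days and was killed 18 hours after 4 estradiol implants of 30 mm were placed. All differences between depots were therefore measured under this shared hormone treatment.

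Cholesterol is built from acetyl-CoA through mevalonate and isoprenoid units to squalene, which is closed into lanosterol and then trimmed to cholesterol. When membrane sterol is low, the transcription factor SREBP-2, encoded by SREBF2, is released from the endoplasmic reticulum and switches on the genes of the synthesis enzymes and of lipoprotein uptake. INSIG1 and INSIG2 hold the factor back when sterol is plentiful. White fat is a large store of unesterified cholesterol, and is known to take much of it from lipoproteins.

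The libraries held 784135 to 8267824 counts, and levels are given as CPM, counts scaled to a fixed common library size, with library sizes adjusted by the trimmed mean of M-values (TMM). The summed CPM of 8 adipocyte markers was 6950 to 26640 in epicardial fat (median 15235) and 8159 to 53490 in the other depots (medians 31335 to 34035). The lowest values outside epicardial fat, 8159 and 14990 CPM, came from visceral fat of sheep 255 and subcutaneous fat of sheep 48. The 9 heart muscle markers summed to 5.88 to 19560 CPM in epicardial libraries and to at most 34.3 CPM elsewhere. The epicardial libraries of control sheep 98 and testosterone sheep 48 held the most heart muscle RNA, 12410 and 19560 CPM. The epicardial library of testosterone sheep 255 stood apart by 95.5 CPM of HOXC6, a homeobox gene that reached at most 2.17 CPM in the other 7. ARGLU1 reached 18440 CPM in testosterone sheep 255 (visceral fat) and 25680 CPM in testosterone sheep 48 (subcutaneous fat), against 242 to 4737 CPM in the other 30 libraries. Of 6 adrenal cortex markers, 3 (CYP11A1, MC2R and NR5A1) were at 0 counts in all 32 libraries. In bulk tissue, fewer cells of a type and less RNA per cell cannot be told apart.

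In control sheep 6 of these 7 genes differed between depots, while prenatal testosterone moved none of them past the threshold in any depot. A joint test of any difference among the 4 depots called 6 of the 7 genes in control sheep, with FDFT1 the exception (adjusted p = 0.0886). Over all genes the same test called 39.9% of 13369, and of 12 further synthesis enzymes tested it called 3. The lowest adjusted p was that of DHCR7 (3.96e-04), followed by IDI1 (0.00197), HMGCS1 (0.00742), LSS (0.00838), SREBF2 (0.0146) and SQLE (0.0173). In testosterone sheep the same test called 0 of the 7, with 3 of them (IDI1, DHCR7 and SREBF2) at an unadjusted p under 0.05, and 4.82% of 13411 genes. DESeq2 called 1 of the 7 there, SREBF2. Without the 2 libraries high in ARGLU1, both from testosterone sheep, the testosterone sheep gave 1 call, IDI1, and without sheep 255 also 1, IDI1. Whether the depot pattern differed between treatments was tested directly by the depot by treatment interaction, which called 0 of the 7 genes by edgeR and 0 by DESeq2. Over all genes it called 0.00703% by edgeR (1 gene, with 656 at an unadjusted p under 0.05) and 10 genes by DESeq2. None of the 7 had an unadjusted interaction p under 0.05.

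**Figure D1:**
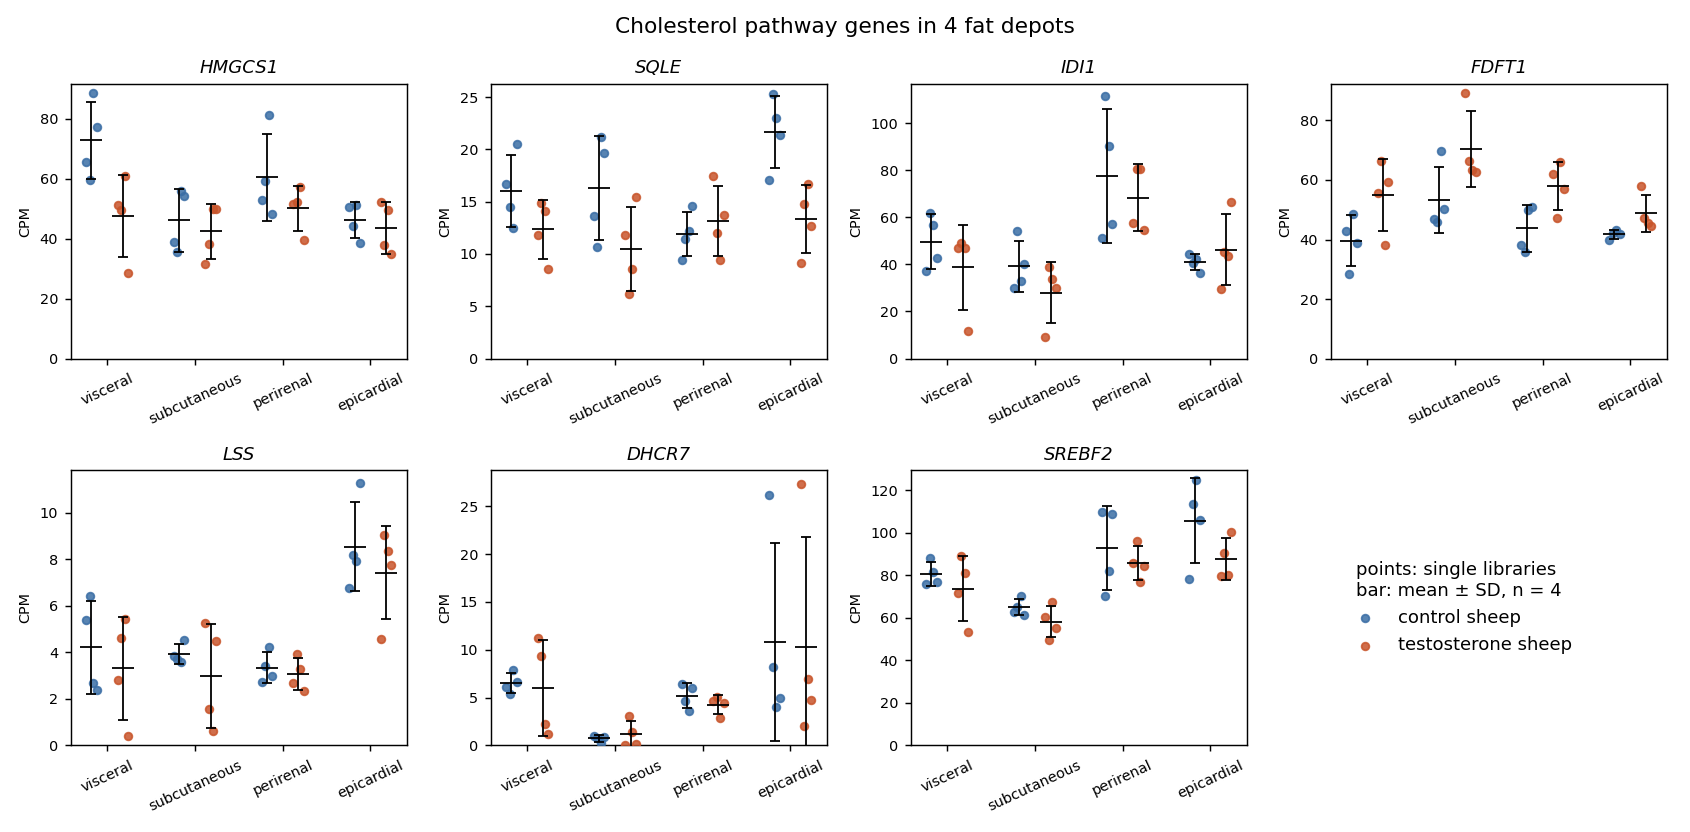
Level of each of the 7 genes (CPM, linear axis) in every library, by depot and treatment; points are single libraries and bars are the mean ± SD of 4 sheep, with bars that would run below 0 clipped at the axis. LSS is highest in epicardial fat (6.79 to 11.3 CPM in control sheep), IDI1 in perirenal fat, and DHCR7 is close to 0 in subcutaneous fat.

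The 6 pairs of depots were compared over all 8 sheep, with each sheep as a block and both treatments weighted equally, on 14225 genes. The visceral and subcutaneous depots differed in 2 of the 7 genes, against 13.8% of all genes. Visceral and perirenal fat differed in 0 of the 7 by edgeR, with 1 gene (IDI1) at an unadjusted p under 0.05 and called by DESeq2, and in 2.52% of all genes. Visceral and epicardial fat differed in 2 of the 7 and in 21.3% of all genes. Subcutaneous and perirenal fat differed in 3 of the 7 and in 28% of all genes. Subcutaneous and epicardial fat differed in 4 of the 7 and in 27.4% of all genes. Perirenal and epicardial fat differed in 3 of the 7 and in 33.2% of all genes. With 7 genes, these shares are coarse. The share of all genes whose libraries do not overlap between depots was not counted. Separations between depots given below therefore have no such background. HMGCS1 was called in no pair, FDFT1 and IDI1 in 2 each, SQLE in 1, and DHCR7, LSS and SREBF2 in 3 each.

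**Figure D2:**
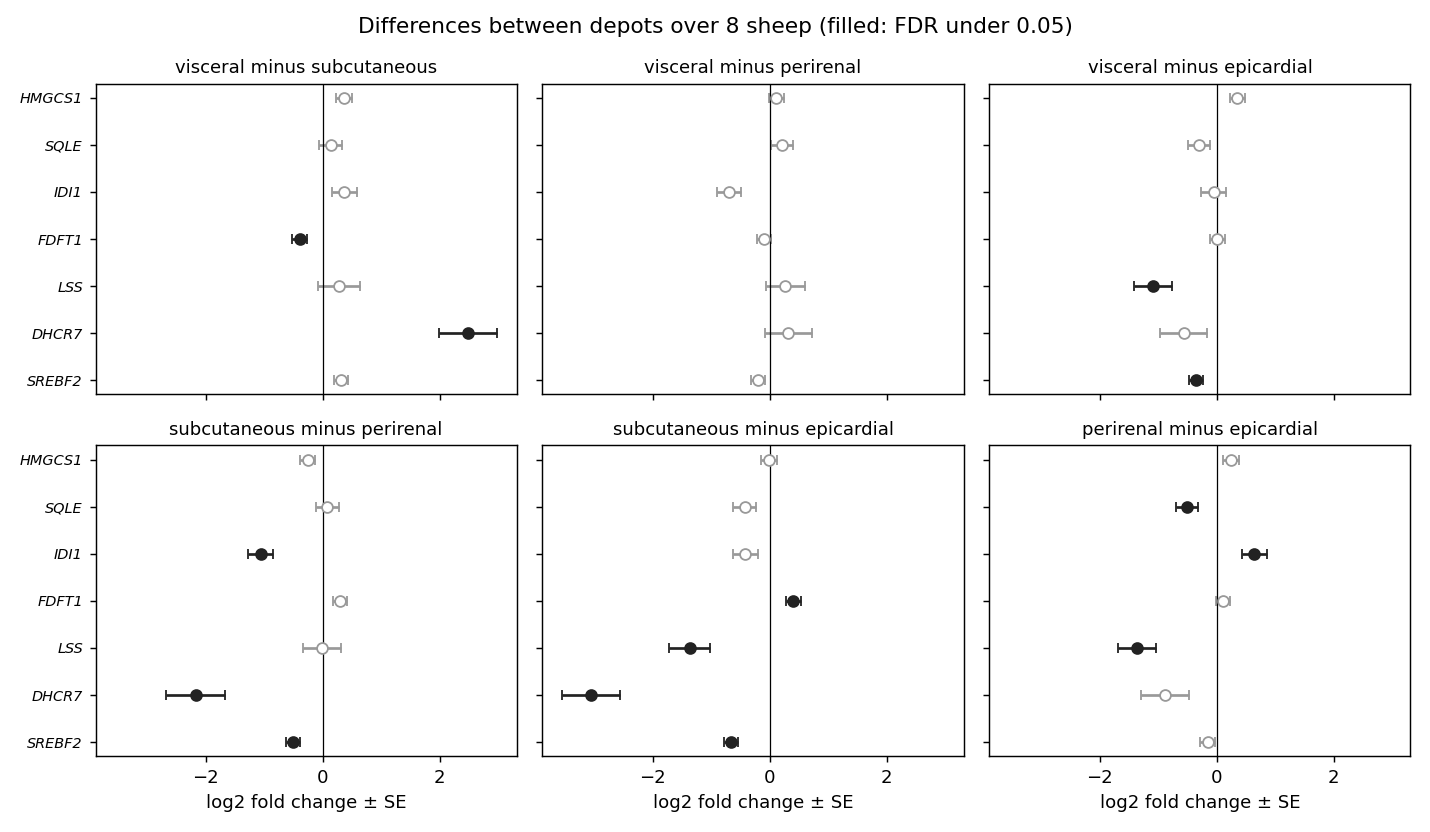
Log2 fold change ± SE of each gene between the 2 depots named above each panel, over 8 sheep; filled points passed an adjusted p of 0.05. Open points lie close to 0 for most genes, and the filled points farthest from 0 are those of DHCR7 against subcutaneous fat.

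HMGCS1 encodes HMG-CoA synthase, which makes HMG-CoA at the start of the pathway. In control sheep its level was 65.5, 59.6, 88.8 and 77.4 CPM in visceral fat and 38.8, 35.6, 55.8 and 54.2 CPM in subcutaneous fat, with no overlap. Perirenal fat gave 60.4 ± 14.6 CPM (SD, n = 4) and epicardial fat 46.2 ± 5.98 CPM. In testosterone sheep the visceral values were 51.2, 49.7, 61.1 and 28.5 CPM, and these overlapped the subcutaneous values of 31.5 to 50.02 CPM. Over all 8 sheep the visceral excess did not pass the test against subcutaneous fat (log2 fold change 0.37, SE 0.13, adjusted p = 0.0621) or epicardial fat (0.36, SE 0.13, adjusted p = 0.052). In control sheep alone both were called, at 0.64 (adjusted p = 0.0121) and 0.62 (adjusted p = 0.00879), and in testosterone sheep alone they were 0.09 and 0.09. Leaving out sheep 255 also called both, at 0.51 (adjusted p = 0.00569) and 0.41 (adjusted p = 0.0122). DESeq2 called both as well, and so did edgeR without the 2 libraries high in ARGLU1 (0.37, adjusted p = 0.041, and 0.42, adjusted p = 0.00786). The epicardial comparison was also called without sheep 48 (0.39, adjusted p = 0.0471) or 98 (0.43, adjusted p = 0.049).

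IDI1 encodes isopentenyl diphosphate isomerase, which balances the isoprenoid units that are joined into longer chains. It was highest in perirenal fat, where the 8 libraries ran from 51.1 through a median of 69.1 to 111.7 CPM. The subcutaneous libraries ran from 9.20 through 33.3 to 54.2 CPM, so only the highest of them reached into the perirenal range. The difference was a log2 fold change of -1.06 (SE 0.21, subcutaneous minus perirenal, adjusted p = 8.25e-04), and it was called without each sheep in turn (-1.15 to -0.97). In testosterone sheep alone it was -1.23 and not called (adjusted p = 0.101). Visceral libraries ran from 11.8 to 61.9 CPM and epicardial libraries from 29.6 to 66.4 CPM. Perirenal fat exceeded epicardial fat by 0.65 (SE 0.21, adjusted p = 0.0215). That call was lost without sheep 131 (0.59, adjusted p = 0.0728), 132 (0.62, 0.0598), 185 (0.61, 0.0622) or 233 (0.63, 0.0635), and held at 0.96 without the epicardial libraries of sheep 98, 48 and 255. Perirenal against visceral fat gave -0.69 (SE 0.21, visceral minus perirenal, adjusted p = 0.0747). It was called at -0.54 (adjusted p = 0.0422) without the 2 libraries high in ARGLU1, at -0.80 (0.0325) without sheep 48, at -0.60 (0.041) without sheep 255 and at -0.73 (0.026) without the 3 epicardial libraries. Visceral exceeded subcutaneous fat in a called difference without sheep 255 (0.53, adjusted p = 0.0257), and not over all 8 sheep (0.37, adjusted p = 0.274). IDI1 overlaps the gene WDR37 in the RefSeq annotation, and whether counting used strand is not stated. WDR37 itself averaged 91.7 CPM in perirenal and 89.9 CPM in subcutaneous fat, a log2 fold change of 0.00 (SE 0.12).

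FDFT1 encodes squalene synthase, the first enzyme committed to sterols. It was the gene of the 7 that was highest in subcutaneous fat, where the 8 libraries ran from 45.9 through 62.9 to 89.3 CPM. Epicardial libraries ran from 39.7 through 43.9 to 58.1 CPM, visceral ones from 28.3 through 45.7 to 66.5 CPM and perirenal ones from 35.9 through 50.4 to 66.0 CPM, all overlapping the subcutaneous range. Subcutaneous fat exceeded epicardial fat by a log2 fold change of 0.41 (SE 0.12, adjusted p = 0.0157). Without sheep 132 that call was lost (0.34, adjusted p = 0.0824), as it was without the epicardial libraries of sheep 98, 48 and 255 (0.42, adjusted p = 0.0509) and in control sheep alone (0.32, adjusted p = 0.132). Subcutaneous fat also exceeded visceral fat, by 0.39 (visceral minus subcutaneous -0.39, SE 0.12, adjusted p = 0.034). This call was lost without sheep 48 (-0.34, adjusted p = 0.109), 98 (-0.44, 0.0506), 131 (-0.35, 0.116), 132 (-0.36, 0.11), 201 (-0.39, 0.0764) or 233 (-0.35, 0.0723), in the fit with no replicate block (-0.39, 0.0637) in that with no filter on low counts (-0.38, 0.0692) and in control sheep alone (-0.45, 0.0531). FDFT1 overlaps CTSB in the annotation, where CTSB averaged 307 CPM in subcutaneous, 181 CPM in epicardial and 450 CPM in visceral fat. CTSB was thus higher in subcutaneous than in epicardial fat too (0.73, SE 0.22, adjusted p = 0.0153) but not higher than in visceral fat (0.53, SE 0.22, visceral minus subcutaneous, adjusted p = 0.113).

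SQLE encodes squalene epoxidase, a rate-limiting enzyme of the pathway. Epicardial libraries of control sheep held 17.1, 25.3, 23.0 and 21.4 CPM and perirenal ones 9.47, 11.4, 12.2 and 14.6 CPM, with no overlap. In testosterone sheep the epicardial values were 9.12, 14.8, 16.7 and 12.7 CPM, and these overlapped the perirenal range of 9.47 to 17.5 CPM. Over 8 sheep epicardial fat was higher (perirenal minus epicardial -0.51, SE 0.19, adjusted p = 0.0415). The difference was -0.91 (adjusted p = 0.00545) in control sheep alone and -0.08 in testosterone sheep alone, and the interaction for SQLE was not called (adjusted p = 0.994). Its call over 8 sheep was lost without sheep 98 (-0.47, adjusted p = 0.115), 131 (-0.41, 0.141), 132 (-0.49, 0.0835), 185 (-0.44, 0.111), 201 (-0.54, 0.0692) or 233 (-0.35, 0.205), and with no filter on low counts (-0.47, 0.0828). No other pair of depots was called for SQLE over 8 sheep; subcutaneous minus epicardial fat (-0.43, adjusted p = 0.109) was called without sheep 255 (-0.59, adjusted p = 0.0297) and without the 3 epicardial libraries (-0.62, adjusted p = 0.0467).

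LSS encodes lanosterol synthase, which closes squalene epoxide into the first sterol. It was highest in epicardial fat in both treatments. Control sheep 98, 131, 132 and 201 held 6.79, 8.19, 7.94 and 11.3 CPM there, and testosterone sheep 48, 185, 233 and 255 held 4.56, 9.06, 8.35 and 7.78 CPM. Over 8 sheep the means were 7.99 ± 1.91 CPM in epicardial, 3.77 ± 2.02 in visceral, 3.44 ± 1.58 in subcutaneous and 3.21 ± 0.656 CPM in perirenal fat (SD, n = 8). All 8 epicardial libraries lay above all 8 perirenal ones, and 1 (sheep 48) lay below the highest subcutaneous value of 5.26 CPM. The visceral libraries, up to 6.41 CPM, overlapped them. The log2 fold changes against epicardial fat were -1.36 for perirenal (SE 0.33, adjusted p = 0.00313), -1.36 for subcutaneous (SE 0.35, adjusted p = 0.00472) and -1.09 for visceral fat (SE 0.33, adjusted p = 0.0193). The visceral call was lost without sheep 132 (-1.01, adjusted p = 0.0638), 185 (-1.11, 0.0502) or 201 (-0.90, 0.097). All 3 were called without the epicardial libraries of sheep 98, 48 and 255, at -1.46, -1.47 and -1.20. In testosterone sheep alone all 3 were lost, at -1.32 (adjusted p = 0.195), -1.56 (0.202) and -1.12 (0.385). The epicardial libraries of sheep 132 and 255, with 6.90 and 5.88 CPM of heart muscle markers, held 7.94 and 7.78 CPM of LSS. Those of sheep 98 and 48, with 12410 and 19560 CPM of these markers, held 6.79 and 4.56 CPM. The remaining epicardial libraries, with 231 to 3299 CPM of these markers, held 8.19 to 11.3 CPM of LSS, above both pairs. The part of heart muscle RNA in the LSS levels was not tested. Each LSS value rests on 1 to 55 counts.

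DHCR7 encodes 7-dehydrocholesterol reductase, which makes cholesterol in the last step. It was lowest in subcutaneous fat, near the limit of counting: control sheep held 0.958, 0.796, 0.223 and 0.910 CPM and testosterone sheep 0, 3.09, 1.37 and 0.179 CPM, or 0 to 12 counts per library. The 0 of sheep 48 came from the shallowest library and allows up to 3.83 CPM (3 counts, counting error only). Visceral fat held 6.11, 5.42, 7.85 and 6.66 CPM in control sheep and 11.2, 9.38, 2.26 and 1.22 CPM in testosterone sheep. Perirenal fat held 5.19 ± 1.30 CPM in control and 4.25 ± 0.964 CPM in testosterone sheep (SD, n = 4 each). Within each of the 8 sheep the perirenal level was above the subcutaneous one, and the epicardial level was above it in 7, sheep 185 being the exception (1.97 CPM against 3.09 CPM). DHCR7 was 5.63-fold higher in visceral than in subcutaneous fat (log2 fold change 2.49, SE 0.50, adjusted p = 0.00162). Against subcutaneous fat, perirenal fat gave -2.17 (SE 0.50, adjusted p = 0.00251) and epicardial fat -3.06 (SE 0.50, adjusted p = 6.53e-05), both as subcutaneous minus the other depot. Within the 8 subcutaneous libraries alone DHCR7 fell below the filter on low counts, so it entered every fit between depots through the other depots. A gene kept that way is already low in subcutaneous fat, so the 3 calls are no separate support for it. The fold changes rest on subcutaneous counts near 0. All 3 calls held without each sheep in turn. In testosterone sheep alone all 3 were lost, at 1.76 (adjusted p = 0.392), -1.60 (0.256) and -2.50 (0.0874). The sum of 5 mesothelium markers was also low in subcutaneous fat, at 1.27 to 5.26 CPM, while the other depots gave sums of 45.9 to 221.8 CPM. Those higher sums were mostly WT1, which reached 211 CPM. KRT19, LRRN4, UPK3B and MSLN reached at most 7.60, 2.75, 2.71 and 0.301 CPM in any library, so the contrast does not show these markers moving together. The part of mesothelium in the DHCR7 result was not tested.

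In epicardial fat DHCR7 spread widely. Control sheep 98, 131, 132 and 201 held 26.2, 8.19, 3.97 and 4.93 CPM, and testosterone sheep 48, 185, 233 and 255 held 27.3, 1.97, 6.96 and 4.75 CPM. Thus 1 library of each treatment was high and 6 were at 8.19 CPM or lower. The 2 high libraries were those with the most heart muscle RNA, 12410 CPM for sheep 98 and 19560 CPM for sheep 48. The next 2 by heart muscle RNA, sheep 131 (3299 CPM) and 233 (2306 CPM), had the next 2 levels of DHCR7. Below these the order did not hold. Sheep 201 (335 CPM) and 185 (231 CPM) held 4.93 and 1.97 CPM of DHCR7. Sheep 132 and 255, with 6.90 and 5.88 CPM of heart muscle RNA, held 3.97 and 4.75 CPM. The part of heart muscle RNA in these levels was not tested. Without the epicardial libraries of sheep 98, 48 and 255, subcutaneous minus epicardial fat was -2.25 (adjusted p = 0.0027) in place of -3.06. Perirenal minus epicardial fat, which was not called at -0.88 (SE 0.40, adjusted p = 0.0949), became -0.03; without sheep 185 it was called (-1.05, adjusted p = 0.038).

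**Figure D3:**
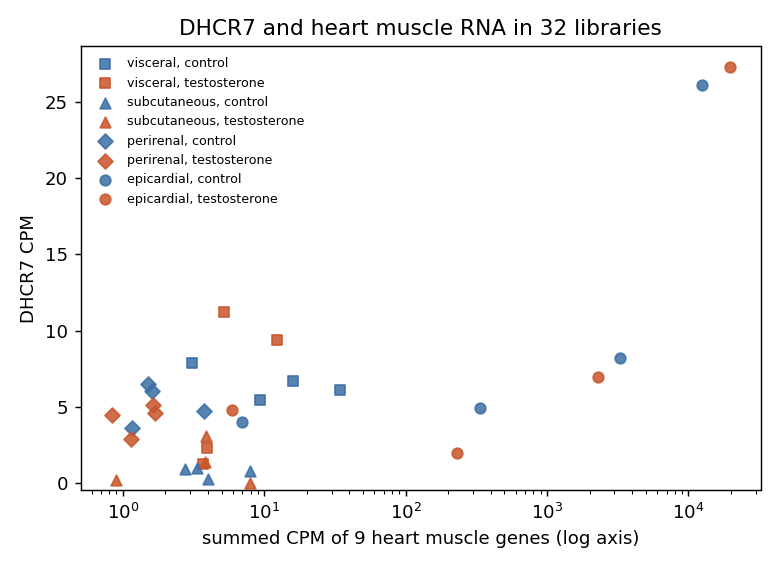
DHCR7 level (CPM, linear axis) against the summed CPM of 9 heart muscle markers (log axis) in each of the 32 libraries, with colour for treatment and shape for depot. The 2 epicardial libraries at 26.2 and 27.3 CPM of DHCR7 are those with 12410 and 19560 CPM of heart muscle markers; subcutaneous libraries lie at 3.09 CPM of DHCR7 or lower.

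SREBF2, the transcription factor gene, was lowest in subcutaneous fat. Its 8 subcutaneous libraries ran from 49.8 through 62.1 to 70.1 CPM, and all 8 epicardial libraries lay above them, from 78.2 through 95.5 to 125.0 CPM. Perirenal libraries ran from 70.0 through 84.99 to 109.5 CPM, so only their lowest value reached down to the highest subcutaneous one. Visceral libraries ran from 53.3 through 78.8 to 88.8 CPM. Epicardial fat exceeded subcutaneous fat (-0.66, SE 0.12, subcutaneous minus epicardial, adjusted p = 2.62e-04), as did perirenal fat (-0.51, SE 0.12, subcutaneous minus perirenal, adjusted p = 0.00355), and both calls held without each sheep in turn. In testosterone sheep alone both were lost, at -0.61 (adjusted p = 0.0887) and -0.53 (0.144). Perirenal and epicardial levels did not differ beyond their spread (-0.15, SE 0.12, 95% interval -0.39 to 0.09). Epicardial also exceeded visceral fat (-0.35, SE 0.12, visceral minus epicardial, adjusted p = 0.0436). The last call was lost without each of the 8 sheep (-0.38 to -0.25), and without the epicardial libraries of sheep 98, 48 and 255 (-0.35, adjusted p = 0.0762), without the 2 libraries high in ARGLU1 (-0.28, adjusted p = 0.0696) with no filter on low counts (-0.32, adjusted p = 0.114) and in control sheep alone (-0.41, adjusted p = 0.0807). Visceral and subcutaneous fat, not called apart over 8 sheep (0.31, adjusted p = 0.0905), were called so without those 2 libraries (0.40, adjusted p = 0.0318).

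Prenatal testosterone was compared with control within each depot, 4 sheep against 4. The edgeR test called 0 of the 7 genes in visceral fat, where 0% of 12860 genes were called and 1212 had an unadjusted p under 0.05. It called 0 of the 6 genes tested in subcutaneous fat, where DHCR7 fell below the filter, and 0% of 12166 genes, with 622 under 0.05. In perirenal fat it called 0 of the 7 and 0% of 12872 genes, with 691 under 0.05. In epicardial fat it called 0 of the 7 and 0% of 12793 genes, with 723 under 0.05. With the counts of a sheep's 4 depots summed, it called 0 of the 7 and 0.00654% of 15301 genes, with 1041 under 0.05. The sums weight each depot by its library depth, which differed between sheep. In subcutaneous fat it was 784135 counts for sheep 48 and 6538042 for sheep 233. For a gene that differs between depots, this weighting enters the summed difference. DESeq2 called 21, 12, 10 and 24 genes in the 4 depots and 63 in the sums, and none of them was among the 7. In epicardial fat DESeq2 gave no adjusted p for 6 of the 7. Unadjusted, HMGCS1 in visceral, FDFT1 in perirenal, SQLE in epicardial fat and both FDFT1 and SQLE in the sums were under 0.05.

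**Figure D4:**
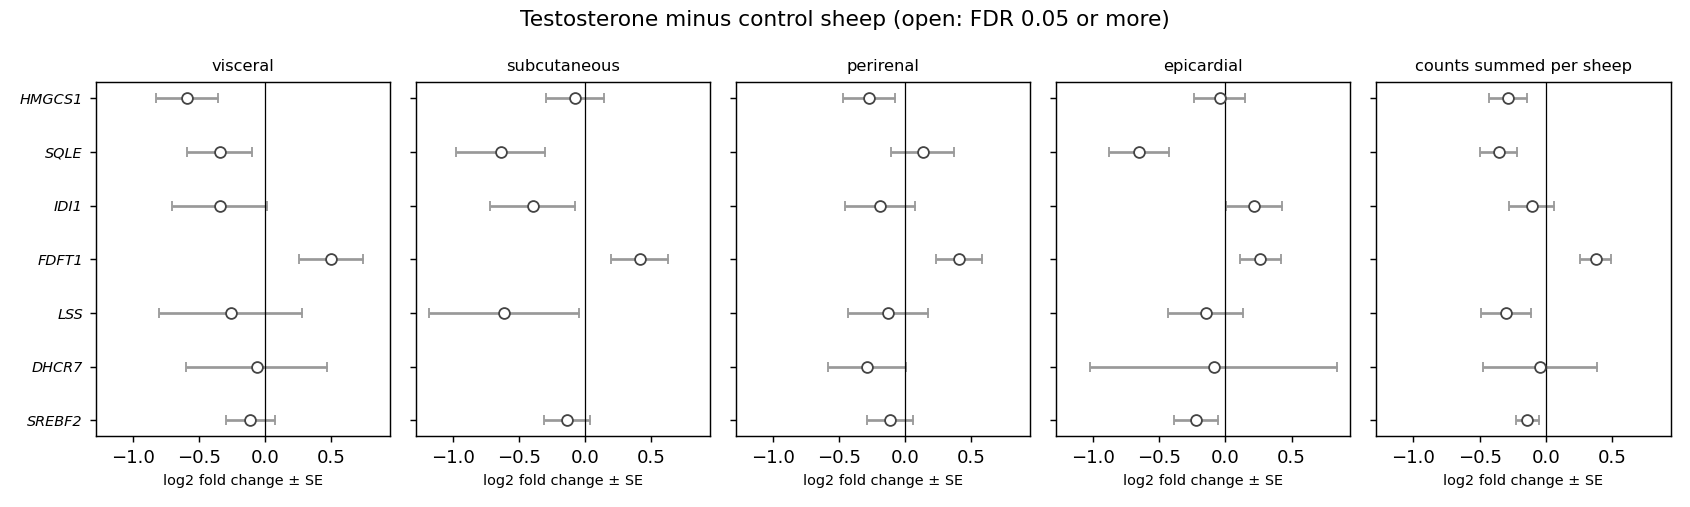
Log2 fold change ± SE, testosterone minus control sheep, of each gene in each depot and in the counts summed per sheep; every point is open because none passed an adjusted p of 0.05, and DHCR7 was not tested in subcutaneous fat. FDFT1 lies right of 0 in all 5 panels, between 0.26 and 0.50.

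FDFT1 had a positive estimate in all 4 depots. In visceral fat control sheep held 42.8, 28.3, 48.6 and 38.9 CPM and testosterone sheep 55.6, 66.5, 38.1 and 59.4 CPM, with testosterone sheep 233 inside the control range. Its log2 fold change there was 0.50 (SE 0.24, 95% interval 0.02 to 0.97). The F test gave an unadjusted p of 0.066 (adjusted p = 0.524). Subcutaneous fat held 47.0, 45.9, 69.6 and 50.4 CPM in control and 89.3, 66.3, 63.3 and 62.5 CPM in testosterone sheep, with control sheep 132 inside the testosterone range. The difference was 0.41 (SE 0.22, adjusted p = 0.927).

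Perirenal fat held 38.2, 35.9, 49.9 and 51.0 CPM of FDFT1 in control and 62.0, 47.4, 66.0 and 57.1 CPM in testosterone sheep, where sheep 185 overlapped the controls. That difference was 0.41 (SE 0.18, adjusted p = 0.914). Epicardial fat held 39.7, 42.1, 43.3 and 41.9 CPM in control and 58.1, 47.2, 45.5 and 44.4 CPM in testosterone sheep. These 2 groups did not overlap, as held for 3.71% of the genes tested there, and the difference was 0.26 (SE 0.16, adjusted p = 0.89). Summed per sheep, controls held 41.0, 36.9, 51.7 and 45.2 CPM and testosterone sheep 60.1, 57.3, 53.9 and 55.0 CPM, again without overlap, as held for 3.71% of genes in the sums. The summed difference was 0.38 (SE 0.12, 95% interval 0.15 to 0.61, adjusted p = 0.658). It ran from 0.30 to 0.46 with each sheep left out. The same 4 sheep of each group are behind every depot, so the 4 estimates are not independent, and the sums hold the same libraries. CTSB, which overlaps FDFT1, gave 0.11 (SE 0.14) in the sums.

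SQLE had a negative estimate in 3 of the 4 depots. In epicardial fat all 4 testosterone values (9.12 to 16.7 CPM) lay below all 4 control values (17.1 to 25.3 CPM), a log2 fold change of -0.66 (SE 0.23, 95% interval -1.10 to -0.21, adjusted p = 0.803). Without the epicardial libraries of sheep 98, 48 and 255 it was -0.51. Subcutaneous fat held 13.7, 10.6, 21.2 and 19.7 CPM in control and 11.8, 6.19, 8.54 and 15.4 CPM in testosterone sheep, which overlapped (-0.64, SE 0.34, adjusted p = 0.927). Visceral fat gave -0.34 (SE 0.24) and perirenal fat 0.13 (SE 0.24). Summed per sheep, controls held 13.6, 15.5, 16.4 and 19.0 CPM and testosterone sheep 13.3, 12.7, 11.1 and 13.2 CPM. The sums did not overlap, and the difference was -0.36 (SE 0.14, 95% interval -0.63 to -0.09, adjusted p = 0.71). Over all genes tested, the groups did not overlap for 3.71% in epicardial fat and for 3.71% in the sums.

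For the other 5 genes the groups overlapped in every depot tested and in the sums. The share of genes whose groups did not overlap was 5.61% in visceral, 3.31% in subcutaneous and 2.91% in perirenal fat, and none of the 7 was among them. HMGCS1 in visceral fat gave -0.59 (SE 0.24, 95% interval -1.05 to -0.13, adjusted p = 0.521). Of its 4 testosterone values there, 3 lay below the lowest control value of 59.6 CPM, and the lowest of them, 28.5 CPM, was that of sheep 255, 1 of the 2 libraries high in ARGLU1. In the sums HMGCS1 gave -0.29 (95% interval -0.56 to -0.01, with an unadjusted p of 0.0712 by the F test). IDI1 gave -0.10 (-0.44 to 0.23), LSS -0.30 (-0.67 to 0.07) and SREBF2 -0.14 (-0.31 to 0.04) there. DHCR7 gave -0.04 in the sums, with an interval from -0.89 to 0.80.

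Other genes of the pathway were read in the same fits, from lists of 16 further synthesis enzymes, 16 genes that control the pathway, 13 of lipoprotein uptake, 12 of cholesterol export and storage, and 10 of fatty acid synthesis. Of these, 14, 14, 13, 10 and 10 were in the table. No gene of any of the 5 lists was called for testosterone in any depot or in the sums, by the same edgeR test. The medians of the synthesis list were between -0.04 and 0.09 in the 4 depots, and those of all genes between 0.00 and 0.02. Medians of the control, uptake and export lists were between -0.17 and 0.08. Those of the fatty acid list ran from -0.20 in subcutaneous to 0.355 in perirenal fat. The 7 genes themselves had medians from -0.27 to -0.09 in the 4 depots.

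**Figure D5:**
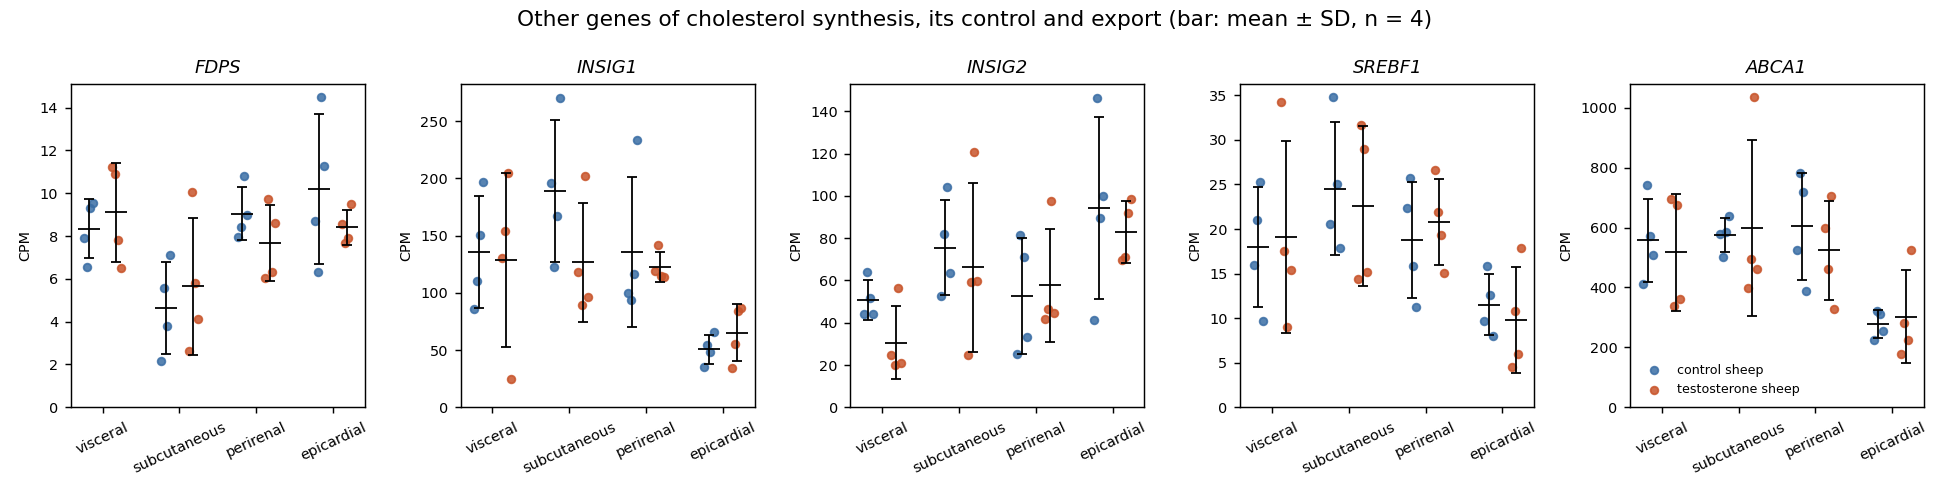
Level (CPM, linear axis) of 5 other genes of the pathway in every library, by depot and treatment; bars are the mean ± SD of 4 sheep. INSIG1, SREBF1 and ABCA1 are lowest in epicardial fat, INSIG2 has its highest mean there (88.5 CPM over 8 sheep), and FDPS is lowest in subcutaneous fat.

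FDPS, which makes the substrate of squalene synthase, was lower in subcutaneous fat than in all 3 other depots. It held 5.15 ± 2.58 CPM there against 8.73 ± 1.81 in visceral, 8.36 ± 1.602 in perirenal and 9.31 ± 2.55 CPM in epicardial fat (SD, n = 8). The log2 fold changes were 0.73 (visceral minus subcutaneous, adjusted p = 0.0214), -0.65 (subcutaneous minus perirenal, 0.0225) and -0.83 (subcutaneous minus epicardial, 0.00492). Of the 14 synthesis enzymes beside the 7, 3 were called between subcutaneous and epicardial fat (background 27.4% of all genes called), all 3 higher in epicardial fat, with a list median of -0.07 against -0.02 for all genes. Between perirenal and epicardial fat (background 33.2% of all genes called), 3 were higher in epicardial and 1 (ACAT2, 1.15) in perirenal fat. Between subcutaneous and perirenal fat (background 28% of all genes called) 5 were called, 2 higher and 3 lower in subcutaneous fat, PMVK being the largest (1.604).

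Among the uptake genes, NPC1 and NPC2, which release cholesterol from endocytosed lipoprotein, were lower in epicardial than in visceral (1.09 and 0.51) and perirenal fat (0.97 and 0.78). Of 12 uptake genes tested, 7 were called between perirenal and epicardial fat (background 33.2% of all genes called), 3 higher in perirenal and 4 in epicardial fat, STARD3 (-0.68) having the largest change of these 4. Between visceral and epicardial fat (background 21.3% of all genes called) 5 were called, 3 higher in visceral and 2 in epicardial fat, so the list did not move in 1 direction.

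The genes that hold SREBP back were split. INSIG1 was lower in epicardial fat, at 58.1 ± 19.9 CPM against 132 ± 59.2 in visceral, 158 ± 62.6 in subcutaneous and 129 ± 44.4 CPM in perirenal fat (SD, n = 8). Its log2 fold changes against epicardial fat were 1.09, 1.36 and 1.08 (adjusted p = 0.0025, 1.94e-04 and 0.00182). INSIG2 was higher in epicardial than in visceral (-1.20) and perirenal fat (-0.80), and higher in subcutaneous than in visceral fat (-0.84, visceral minus subcutaneous). SREBF1, which encodes SREBP-1, the factor for fatty acid genes, was lower in epicardial than in subcutaneous (1.13) and perirenal fat (0.79). Of 14 control genes tested, 6 were called between subcutaneous and epicardial fat (background 27.4% of all genes called), all 6 higher in subcutaneous fat, with a list median of 0.32 against -0.02 for all genes. The cholesterol exporter ABCA1 held 290.4 ± 107 CPM in epicardial fat (SD, n = 8) and was lower there than in visceral (0.83), subcutaneous (0.97) and perirenal fat (0.88). Of 10 fatty acid genes, 6 were called between subcutaneous and epicardial fat. Subcutaneous fat was higher in 4, by 9.15-fold in the desaturase SCD, and lower in the desaturases FADS1 (-1.43) and FADS2 (-1.48).

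Cell type markers also differed between epicardial and subcutaneous fat. All 9 heart muscle markers in the table and 6 of 8 Schwann cell markers, among them CDH19 (-4.58), were called higher in epicardial than in subcutaneous fat, while 6 adipocyte markers, among them ADIPOQ (0.96) and FABP4 (1.17), were called lower. A further Schwann cell marker, S100B, was called lower in epicardial fat (0.94). Summed over those 8 Schwann cell markers, epicardial (308 to 884 CPM) and subcutaneous libraries (335 to 752 CPM) overlapped. Their part in the depot differences of the cholesterol genes was not tested. The epicardial libraries of sheep 132 and 255, with heart muscle markers at 6.90 and 5.88 CPM, held 48.0 and 87.1 CPM of INSIG1. Those of sheep 98 and 48, with 12410 and 19560 CPM of these markers, held 35.5 and 34.75 CPM. The remaining epicardial libraries held 54.2 to 84.4 CPM of INSIG1.

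The 7 genes varied together only weakly. Over the 32 libraries the 21 pairs of genes had a median Pearson r of 0.19 in log2 CPM (-0.47 to 0.61), and 15 were above 0. The highest was SQLE with LSS (0.61). FDFT1 was negative with each of the other 6, from -0.31 to -0.47. After the mean of each depot and treatment group was subtracted, the median was 0.10 and 13 of the 21 were above 0. FDFT1 then stood at -0.44 with IDI1, at -0.16 with LSS and between -0.03 and 0.10 with the other 4. Points of 1 sheep and of 1 depot are not independent and share their library's depth, so these values describe the libraries and have no test.

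Among the 8 genes most like the mean of the 7, of 11942 ranked over the same 32 libraries, were LPAR5 (r 0.82), UBB (0.81), PDIA6 (0.79), PTPN9 (0.78), FUNDC2 (0.76), GEMIN6 (0.76) and OGFOD3 (0.76). INSIG1 stood at rank 6269 (0.05) there, and at rank 109 (0.70, or 0.45 without the 2 libraries high in ARGLU1) once group means were subtracted. Without the 2 libraries high in ARGLU1, those named fell to between 0.59 and 0.72. With group means subtracted, the nearest genes were C1H1orf43 (0.86), TMCO1 (0.83), PREP (0.82), HSPH1 (0.81), MRPL20 (0.81), EMC7 (0.80), ARMCX5 (0.80) and TFG (0.79), and they fell to between 0.57 and 0.73 without the same 2 libraries.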

How the data were processed

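RNA of 32 fat samples with an integrity number of at least 7 was made into 3′ mRNA-seq libraries, per the labels' protocols. Per the submitters' processing notes, the tools included FastQC 0.11.5, MultiQC 0.9, Trimmomatic 0.36, STAR, featureCounts 1.6.1 and DESeq2 1.24.0; no label or header gives the genome build or the strand setting. The authors deposited raw counts per gene, 784135 to 8267824 per library, with no normalization. From these counts, edgeR 4.0.16 (R 4.3.3) gave TMM-scaled CPM and quasi-likelihood tests with robust dispersions, after filterByExpr with a minimum count of 10 and with Benjamini-Hochberg adjustment over all genes tested (threshold 0.05). SE was taken from the F statistic (absolute log2 fold change over the root of F), and 95% intervals are 1.96 SE either way. With few sheep these are narrower than the F tests allow, so an interval clear of 0 can go with an unadjusted p above 0.05. CPM for correlations used a prior count of 2. Testosterone was tested within each depot and in counts summed per sheep. Depots were tested with the sheep as a block, because the 4 depots came from the same 8 sheep: 41 of 48 correlations of same-sheep deviations exceeded 0.1 (mean r 0.23, against -0.08 between sheep). These deviations were taken from the mean of each depot and treatment group. The between-sheep mean therefore largely follows from the same-sheep mean and adds no separate comparison. The labels name no batch. Each sheep is 1 replicate. No replicate libraries were identical (48 pairs, lowest chi-square 11.6 per degree of freedom). Alternatives were RLE scaling, no filter, DESeq2 1.42.0, leaving out each sheep, no replicate block, each treatment alone, and leaving out libraries that stood apart. The fits were tested on simulated data with known answers. The 7 genes, the gene lists and the rule for naming further genes (in each pair of depots, the 3 largest changes per list and direction among those past the threshold) were chosen with earlier results of these data known. IDI1 was found by gene ID. No sequences are shown, and some further genes that the rule names are not reported here.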

Additional observations from a re-analysis of the deposited data

Results flagged for a closer look

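Among 56 sets of 4 libraries (7 genes, 4 depots, 2 treatments), 2 held a library far from the other 3, where chance alone flags about 1 set in 20. IDI1 stood at 11.8 CPM in visceral fat of testosterone sheep 255, against 46.8 to 49.2 CPM in the other 3. FDFT1 stood at 89.33 CPM in subcutaneous fat of testosterone sheep 48, against 62.5 to 66.3 CPM in the other 3. These are the 2 libraries with the highest ARGLU1 (18440 and 25680 CPM). They were also low in summed adipocyte markers for their depot, at 8159 and 14990 CPM, and held 2609183 and 784135 counts. The part of these measures in the 2 levels was not tested.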

How the results depend on the processing

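No result changed direction among those called, under any alternative run. The count of the 7 genes called for testosterone was 0 in every depot, in the sums and for the interaction under every alternative. For any depot difference it was 6 in control sheep, and 4 to 5 with 1 control sheep left out. In testosterone sheep it was 0, but 1 with DESeq2, 1 without the 2 libraries high in ARGLU1, and 0 to 1 with 1 sheep left out. Between visceral and subcutaneous fat it was 2, but 3 with DESeq2, where HMGCS1 was called as well. There it was also 1 with no filter, 1 with no replicate block and 4 without the 2 libraries high in ARGLU1. It was 0 in testosterone sheep alone, and 1 to 4 with 1 sheep left out. Between visceral and perirenal fat it was 0, but 1 with DESeq2, 1 without the 2 libraries high in ARGLU1, 1 without the epicardial libraries of sheep 98, 48 and 255, and 0 to 1 with 1 sheep left out. Between visceral and epicardial fat it was 2, but 3 with DESeq2, 1 with no filter, 0 in testosterone sheep alone, and 0 to 2 with 1 sheep left out. Between subcutaneous and perirenal (3), subcutaneous and epicardial (4) and perirenal and epicardial fat (3) it was 0 in testosterone sheep alone, and 3 to 4, 3 to 5 and 1 to 3 with 1 sheep left out. With no filter, SQLE was lost between perirenal and epicardial fat (-0.47, adjusted p = 0.0828), which left 2. In control sheep alone the 2 between visceral and subcutaneous fat were HMGCS1 and DHCR7, without FDFT1, the 2 between visceral and epicardial fat were HMGCS1 and LSS, without SREBF2, and FDFT1 was lost between subcutaneous and epicardial fat. Each treatment alone has fewer sheep; the cause of the other changes was not tested. The paired fit with the replicate block and the fit without it gave the same genes in all other comparisons. Over all genes, leaving out the block lowered the calls between visceral and perirenal fat from 358 to 164. Depth limits LSS and DHCR7 most, at 0 to 81 counts per library.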
